A study of Rattus norvegicus with 4 samples.

Results

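The nuclear genes of the mitochondrial respiratory chain were followed in the hippocampus of running and sedentary rats. Members were the genes whose array accession resolved to a symbol starting with Nduf, Uqcr, Atp5, or Cox and a digit, or to Sdha, Sdhb, Sdhc, Sdhd, Cycs or Cyc1. This rule used names only and found 55 genes with 64 probes, of 8899 named genes with 10768 probes. Of the 55 genes, 50 code for subunits or their isoforms, or for the related Ndufa10l1, the ATPase inhibitor Atp5if1 and cytochrome c, and 5 code for assembly factors (Ndufaf3, Ndufaf4, Ndufaf7, Cox15 and Cox17). By complex, 16 genes belonged to complex I, 3 to complex II, 5 to complex III, 1 was cytochrome c, 15 belonged to complex IV and 15 to complex V. The reference table holds 129 protein-coding genes that match the rule, so these genes are a sample of the chain, and the other subunits, among them Ndufa4, Ndufa9, Ndufab1, Sdhb and Cyc1, were not analysed here.

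The animals were male Wistar rats of 10 weeks of age when allocated, housed individually. Sedentary rats (10 animals) lived in standard cages, WR rats (8 animals) had a running wheel without resistance for 24 h a day over 4 weeks, and RWR rats (8 animals) had a wheel whose resistance started at 4.5 g in the first week and was raised to 30% of body weight. RNA was pooled within each group, and each running pool was hybridized against sedentary RNA on 2 chips with the Cy3 and Cy5 dyes exchanged, so 4 chips in 2 colours held 1 pool per group. How many rats contributed to a pool is not stated outright, and it need not be all animals of the group. The paper gives the RNA amounts per replicate and per pool, which point to fewer replicates in a pool than animals in a group. The chips of a pair repeat the same pools, so no test between conditions could be made, and every error given here is that of the chips and not of the rats.

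The respiratory chain carries electrons from NADH (complex I) and succinate (complex II) through ubiquinone, complex III and cytochrome c to oxygen at complex IV, and complexes I, III and IV pump protons across the inner mitochondrial membrane. Complex V, the ATP synthase, uses the proton gradient to make ATP. Neurons draw most of their ATP from this chain, and firing and synaptic transmission are among its main costs in the hippocampus.

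The sequence before the start of transcription is shown for Atp5f1a, Atp5f1b and Uqcrc1, which were lower in the RWR pool than in the WR pool in both dye orientations, and for Sdha, whose pair means lay near 0. Each sequence is the 250 bases before the annotated start, 5′ to 3′ on the strand of the gene, from RefSeq on the GRCr8 build: chr18:73567287-73567536 for Atp5f1a, chr7:1099808-1100057 for Atp5f1b, chr8:118467973-118468222 for Uqcrc1 and chr1:30764303-30764552 for Sdha, all on the plus strand. Capitals mark a match on either strand to the core of the motif of NRF1 (in Uqcrc1 and Sdha) or to CCGGAAG, the core of the motif of ETS factors such as GABPA (in Atp5f1a). Both factors are known as activators of nuclear genes for mitochondrial proteins.
Atp5f1a: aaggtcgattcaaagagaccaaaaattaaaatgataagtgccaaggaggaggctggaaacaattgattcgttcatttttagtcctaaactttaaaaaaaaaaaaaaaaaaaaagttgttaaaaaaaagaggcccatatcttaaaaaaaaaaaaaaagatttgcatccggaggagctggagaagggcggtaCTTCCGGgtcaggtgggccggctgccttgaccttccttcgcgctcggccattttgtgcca
Atp5f1b: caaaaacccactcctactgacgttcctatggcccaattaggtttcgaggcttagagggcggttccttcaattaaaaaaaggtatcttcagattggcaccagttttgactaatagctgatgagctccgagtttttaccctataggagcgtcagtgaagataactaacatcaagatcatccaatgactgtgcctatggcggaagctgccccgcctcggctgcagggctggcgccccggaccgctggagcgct
Uqcrc1: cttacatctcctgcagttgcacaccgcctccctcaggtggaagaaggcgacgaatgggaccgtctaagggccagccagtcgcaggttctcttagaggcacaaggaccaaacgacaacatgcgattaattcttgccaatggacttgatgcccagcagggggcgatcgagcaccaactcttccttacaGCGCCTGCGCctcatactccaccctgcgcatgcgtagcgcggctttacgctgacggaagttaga
Sdha: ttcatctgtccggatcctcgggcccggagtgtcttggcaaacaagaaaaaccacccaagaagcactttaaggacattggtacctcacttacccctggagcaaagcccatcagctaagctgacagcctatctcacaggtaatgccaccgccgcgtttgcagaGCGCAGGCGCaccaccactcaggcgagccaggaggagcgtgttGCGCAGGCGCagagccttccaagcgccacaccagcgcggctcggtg
The ETS core of Atp5f1a begins 60 bases before the start and the NRF1 core of Uqcrc1 64 bases before it, both read on the opposite strand. The pair of NRF1 cores of Sdha begin 89 and 46 bases before the start, and neither motif was found before the start of Atp5f1b. A promoter of 300 bases, 250 before and 50 after the start, was held for 49 of the 55 members. The NRF1 core was in 13 of these 49 (26.5%) and in 4.25% of all 33469 promoters of the table, or 9.39% of the 5132 promoters of named genes well above background on the array. The ETS core was in 15 of the 49 members (30.6%), in 8.75% of all promoters and in 16.6% of those of the same named genes. At least 1 of the motifs was in 26 of the 49 members (53.1%), in 12.2% of all promoters and in 23.8% of those of the same named genes. These are matches of letters and not measured binding sites.

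The labelled tissue was checked on its markers. All 6 markers of principal neurons with a named probe (Calb1, Neurod2, Wfs1, Camk2a, Grin1 and Slc17a7), all 4 of interneurons, all 4 of astrocytes and all 4 of oligodendrocytes exceeded the background well, on each of the 4 chips and in either dye. Gh1 and Pomc of the pituitary, Dcn and Lum of the meninges, and Hbb and Alas2 of blood were also well above background throughout. So were all 4 microglia markers and Cldn5 of the endothelium, but not Pecam1 of the endothelium or Prl of the pituitary. The mean log2 ratio of both chips in WR and RWR was -0.98 and -1.20 for Prl, -0.29 and -0.14 for Gh1, and 0.02 and 0.06 for Pomc. Of the 6 choroid plexus markers, Kl was not well above background on any chip, and Ttr and Folr1 were on all. In WR, the mean log2 ratio of both chips was -0.86 for Ttr, -0.21 for Folr1 and -0.35 for Clic6. It was above 0 for Kcnj13 (0.28), Aqp1 (0.04) and Kl (0.43). The summed processed signal of the choroid plexus markers was 619 to 718 in sedentary RNA, 353 to 423 in WR and 710 to 806 in RWR RNA. That of the oligodendrocyte markers was 57190 to 74139 in sedentary, 55502 to 61127 in WR and 54348 to 65440 in RWR RNA. Between 67.5% and 82.5% of the probes of a chip were well above background in a dye, and no spot was saturated.

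The respiratory chain genes were well measured. Of the 55, 53 were well above background in all 8 readings (4 chips with 2 dyes each), and 50 lay in the top 5 of 20 signal levels, where 37.6% of all named genes lay. The technical SD of 1 chip at the signal of these 53 genes ranged from 0.04 to 0.32 on the log2 scale, with a median over the 55 members of 0.04 against 0.05 for the 5927 named genes that were well above background in all 8 readings. Uqcrq, a small subunit of complex III, and Cox8c, the testis isoform of the complex IV subunit 8, were the exceptions. Their probes were not well above background in any of the 8 readings, and no ratio is given for them. All values below are for the brightest probe of a gene. For the 6 genes with several probes (Atp5mc2, Cox5b, Cycs, Ndufa10l1, Ndufaf4 and Ndufc2) the pair means of the probes of a gene differed by at most 0.05. Processed pseudogene copies are annotated for 30 of the 55 genes, and Ndufa10l1 is close to Ndufa10, so a probe may also read such copies.

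After 4 weeks of running, the measured members lay close to the sedentary level in both pools. A rule built from the criteria of the study asked for a ratio over 1.5 or under 0.75 on each chip of a pair. It also asked for p-values under 0.01 from the error model of the software on both chips. It passed 6 named genes in each comparison, far fewer than the study listed over the whole array, so the study's selection was not reproduced. No member passed it in WR (0 of 55, beside 0.0674% of the 8899 named genes) or in RWR (0 of 55, beside 0.0674%). Without the p-value filter the counts were also 0 of 55, beside 0.494% of named genes in WR and 1.57% in RWR. Of the 5927 named genes well above background in all 8 readings, 0.135% and 0.101% passed. With a looser limit, a pair mean past 1.2-fold in the same direction on both chips, they were again 0 of 55, beside 3.58% in WR and 5.27% in RWR. Among the 5927 named genes well above background that limit was passed by 1.06% and 1.08%, so 0 members is a share near the background. All 53 measured members lay within 1.2-fold of the sedentary pool in both comparisons. The log2 ratio, the mean of both chips, was under 0.1 in size for 50 of 53 members in WR and for 40 of 53 in RWR, against 81.8% and 78.6% of the 5927 genes. In a bulk sample a lower ratio can come from fewer cells of a type or from less RNA per cell, and these cannot be told apart.

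**Figure D1:**
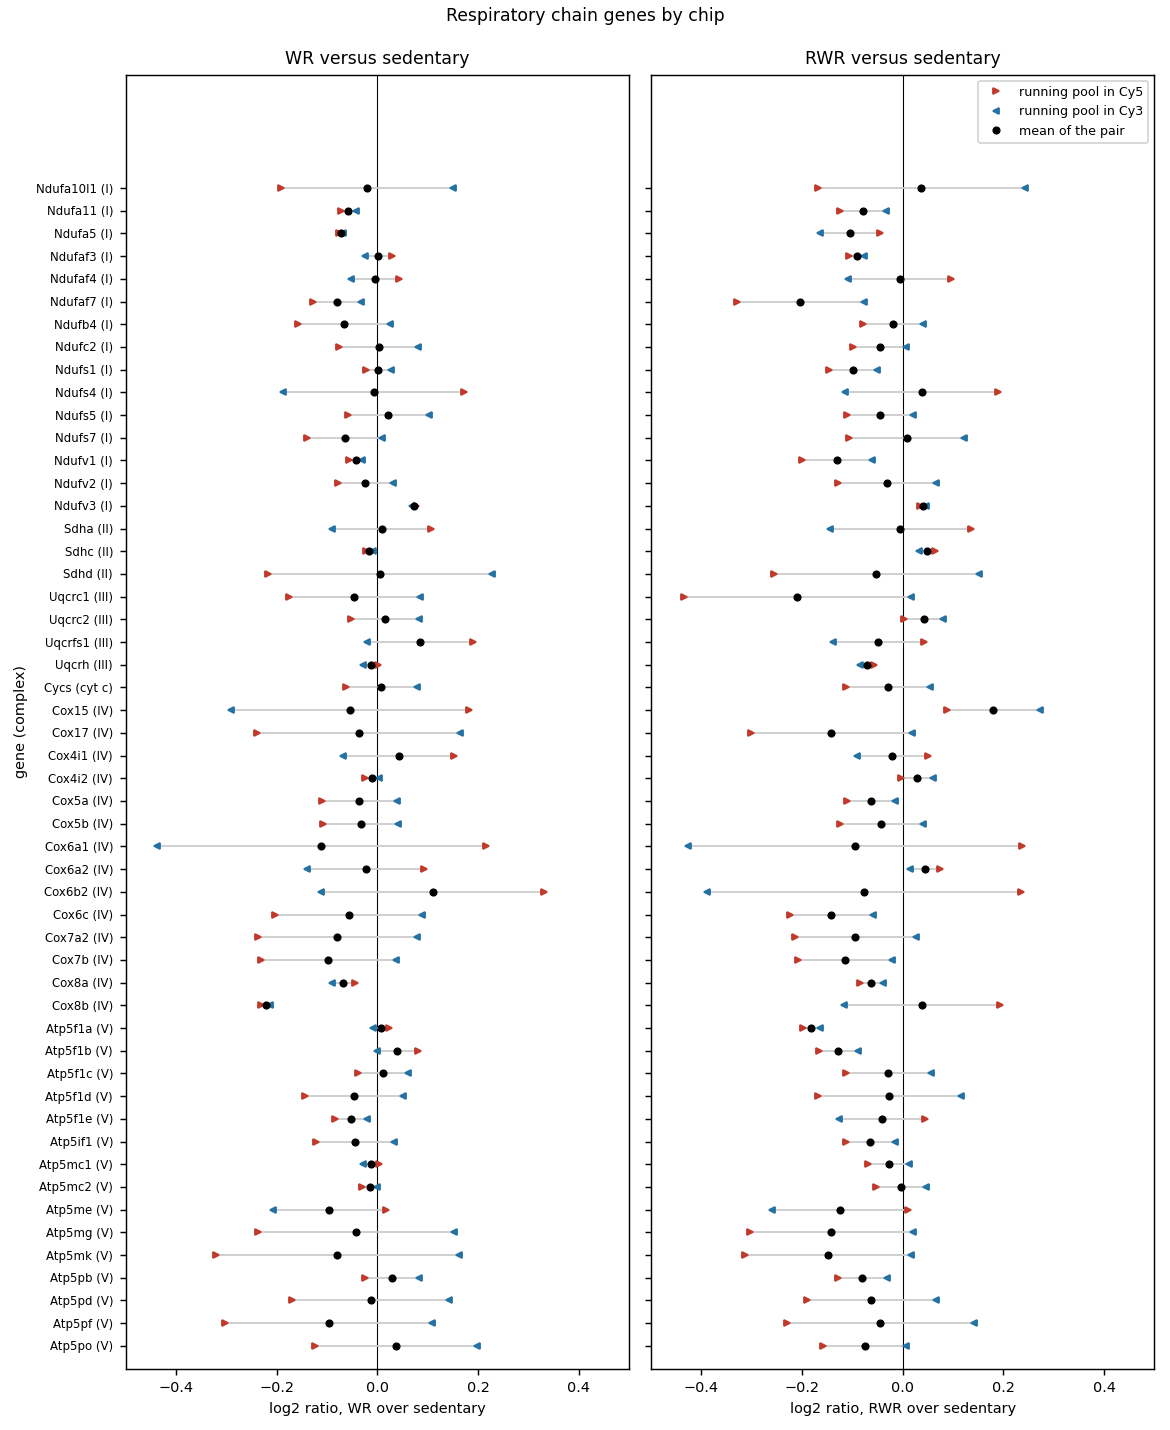
The log2 ratio of running over sedentary RNA is plotted for 52 of the 53 members well above background, in WR (left) and RWR (right), with the complex of each gene after its symbol. Red triangles are the chip with the running pool in Cy5, blue triangles the chip with the running pool in Cy3 and black dots the mean of both, and in many genes the triangles lie on opposite sides of 0.

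The distance between the chips of a pair was mostly wider than the mean ratio itself. The median of the 53 measured members on the chip with the running pool in Cy5 was -0.06 (WR) and -0.11 (RWR) on the log2 scale, and on the chip with that pool in Cy3 it was 0.009 and 0.007. Over all probes of the array, the ratios of the chips of a pair, turned to running over sedentary, correlated across probes with r = -0.76 (41008 probes) for WR and -0.69 (41007 probes) for RWR, so probes that were high on 1 chip tended to be low on its partner. A shift that follows the dye has this form and cancels in the mean of the pair. In the members this dye term, the Cy5 over Cy3 shift common to a pair, was larger in size than the mean ratio in 43 of 53 genes in WR and in 32 of 53 in RWR. In such genes the chips of the pair have opposite signs, so counts of genes alike on both chips depend on the dye term. Cox6a1, the widely expressed isoform of complex IV subunit 6a, had the widest gap. Its log2 ratio was 0.22 with WR in Cy5 and -0.44 with WR in Cy3, and 0.24 and -0.43 for RWR. The deposited p-value of a single chip was lowest for this gene among the members (0.035), on a chip whose partner had the opposite sign. No member had a single-chip p-value under 0.01.

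The pair means leaned slightly below 0. In WR the median log2 ratio of the 53 members was -0.02, with 36 of 53 (67.9%) below 0, beside 49.8% of the 5927 named genes well above background, whose median was 0.0002. In RWR the median was -0.05, with 43 of 53 (81.1%) below 0, beside 51.0% and a median of -0.001. Among the 3344 named genes of the top 5 signal levels the median was -0.003 in both comparisons, with 52.3% below 0 in each. The median was below 0 on the chip with the running pool in Cy5 and just above 0 on the other. The median dye term of the 53 members was -0.04 in WR and -0.05 in RWR. It lowers the first chip and raises the second, so the lean cannot be assigned to 1 chip. Lower on both chips were 9 of 55 members in WR, beside 11.6% of all named genes and 15.3% of those well above background, and 16 of 55 in RWR, beside 15.7% and 17.0%. Higher on both chips were 1 of 55 (Ndufv3) in WR, beside 12.2%, and 5 of 55 (Ndufv3, Sdhc, Uqcrc2, Cox15 and Cox6a2) in RWR, beside 12.5%. The interquartile range of the members was 0.061 in WR and 0.076 in RWR, against 0.089 and 0.101 for the 5927 genes and 0.072 and 0.082 for the 3344 genes of the top 5 signal levels. All 4 oligodendrocyte markers had pair means below 0 in both comparisons, with a median of -0.07 in WR and -0.11 in RWR (Mbp -0.24 in RWR). The chips of a pair had opposite signs for Mog in both comparisons, Mbp in WR and Mag in RWR. Medians in WR and RWR were 0.02 and 0.02 for principal neuron markers, 0.03 and 0.10 for interneurons, 0.01 and 0.01 for astrocytes, and 0.04 and -0.01 for microglia. The part of these cell types in the values of the members was not tested.

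**Figure D2:**
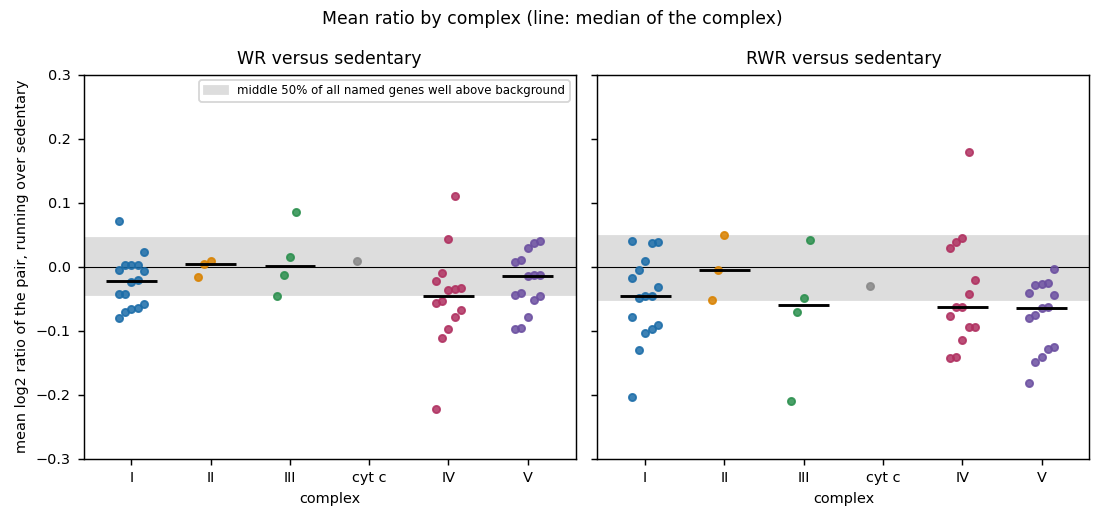
The mean log2 ratio of a pair is plotted for each measured member by complex, in WR (left) and RWR (right). Black lines are medians of a complex and the grey band holds the middle 50% of the 5927 named genes well above background. All 15 genes of complex V lie below 0 in RWR and 10 of 15 in WR.

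Complex V had its pair means below 0 throughout in RWR. The median log2 ratio of its 15 genes was -0.06 in RWR, with a range of -0.18 to -0.003 and 15 of 15 below 0, and -0.01 in WR, with 10 of 15 below 0. On both RWR chips, 4 of the 15 (Atp5f1a, Atp5f1b, Atp5pb and Atp5if1) were lower, beside 15.7% of all named genes and 17.0% of those well above background. This count depends on the dye term of each probe as well as on its mean ratio. With the median at each of 20 signal levels subtracted, or with normexp or no background correction, 14 of 15 were below 0.

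Atp5f1a codes for the alpha subunit of the catalytic head of the ATP synthase. With the running pool in Cy5 its processed signal was 7135 in sedentary and 7250 in WR RNA, and 7838 in sedentary and 6830 in RWR RNA. With the running pool in Cy3 it was 6489 in sedentary and 6449 in WR RNA, and 6913 in sedentary and 6166 in RWR RNA. RWR was thus below sedentary on both chips and WR was level with it. The log2 ratios were 0.02 and -0.01 in WR, with a mean of 0.01 ± 0.03 (technical SE), and -0.20 and -0.16 in RWR, with a mean of -0.18 ± 0.03 (0.882-fold).

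Atp5f1b codes for the beta subunit, which holds the catalytic sites. Its processed signal with the running pool in Cy5 was 7888 in sedentary and 8340 in WR RNA, and 9165 in sedentary and 8163 in RWR RNA. With the running pool in Cy3 it was 7889 in sedentary and 7886 in WR RNA, and 7888 in sedentary and 7413 in RWR RNA. The log2 ratio was 0.08 and -0.001 in WR and -0.17 and -0.09 in RWR, so both RWR chips lay below both WR chips (means 0.04 ± 0.03 and -0.13 ± 0.03). The third large subunit of the head, Atp5f1c (gamma), differed less, with a mean of 0.01 in WR and -0.03 in RWR.

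The remaining subunits of the head, Atp5f1d (delta) and Atp5f1e (epsilon), had means of -0.05 each in WR and of -0.03 and -0.04 in RWR. In the stalk, Atp5pb (subunit b) was -0.02 and 0.08 in WR and -0.13 and -0.03 in RWR, and Atp5po (OSCP), Atp5pd (subunit d) and Atp5pf (F6) had RWR means of -0.08, -0.06 and -0.04. Atp5mc1 and Atp5mc2, which code for the same subunit c of the rotor ring, were close to 0 in RWR (-0.03 and -0.003). Of the small membrane subunits, Atp5mk had an RWR mean of -0.15, Atp5mg one of -0.14 and Atp5me one of -0.13, but in each of these the chips disagreed in sign. The lower chip had the running pool in Cy5 for Atp5mk (-0.31 against 0.02) and Atp5mg (-0.30 against 0.02), and in Cy3 for Atp5me (-0.26 against 0.01). Atp5if1, which codes for the inhibitor of ATP hydrolysis by the synthase, was -0.04 in WR and -0.06 in RWR.

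Complex III had the lowest mean of all measured members in RWR and 1 of the highest in WR. Uqcrc1 codes for a core protein of the complex. Its log2 ratio was -0.18 and 0.08 in WR and -0.43 and 0.02 in RWR, with an RWR mean of -0.21 ± 0.03 (0.865-fold). Its dye term was of like size, -0.13 in WR and -0.23 in RWR, so the mean cannot be assigned to 1 chip. With RWR in Cy5 its processed signal was 1327 in sedentary and 982 in RWR RNA, and with RWR in Cy3 it was 1000 and 1011. Uqcrfs1, the Rieske iron-sulfur subunit, was 0.19 and -0.02 in WR and 0.04 and -0.14 in RWR (means 0.08 ± 0.03 and -0.05 ± 0.03). Uqcrc2, the other core protein, was close to 0 in both (0.02 and 0.04), and Uqcrh, the hinge protein, was -0.01 in WR and -0.07 in RWR, where both chips were below 0 (-0.06 and -0.09). Cycs, cytochrome c itself, had means of 0.01 and -0.03, with opposite signs on the chips of both pairs.

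In complex I, 11 of 16 genes had means below 0 in WR and 12 of 16 in RWR, with medians of -0.02 and -0.05. Ndufs1, the iron-sulfur subunit of the NADH-oxidizing arm, was -0.02 and 0.03 in WR and -0.15 and -0.05 in RWR (means 0.002 ± 0.03 and -0.10 ± 0.03). Ndufv1, which carries the flavin that accepts electrons from NADH, was -0.06 and -0.03 in WR and -0.20 and -0.06 in RWR, below 0 on all 4 chips. Of the other core subunits, Ndufv2 had means of -0.02 and -0.03, and Ndufs7 had means of -0.07 and 0.01.

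The accessory subunits of complex I differed in sign. Ndufv3 was higher on all 4 chips, by 0.08 and 0.07 in WR and by 0.04 and 0.05 in RWR (means 0.07 ± 0.03 and 0.04 ± 0.03). Ndufa5 and Ndufa11 were lower on all 4, with means of -0.07 and -0.06 in WR and of -0.10 and -0.08 in RWR. For Ndufb4, Ndufc2, Ndufs4, Ndufs5 and Ndufa10l1 the chips of each pair had opposite signs, and their means lay between -0.07 and 0.04.

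Ndufaf7, a methyltransferase of complex I assembly, had the second lowest mean in RWR. It was -0.13 and -0.03 in WR and -0.33 and -0.08 in RWR, so all 4 chips were below 0 (means -0.08 ± 0.04 and -0.20 ± 0.04, or 0.946-fold and 0.869-fold). Ndufaf3, another assembly factor of complex I, was 0.03 and -0.02 in WR and -0.11 and -0.08 in RWR, and Ndufaf4 had means of -0.005 and -0.01.

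The pair means of the 3 measured genes of complex II ran from -0.02 to 0.01 in WR and from -0.05 to 0.05 in RWR. Sdha, the flavoprotein that oxidizes succinate, had processed signals of 17690 in sedentary and 19053 in WR RNA on the chip with WR in Cy5, and 17174 and 16131 on the other. Its log2 ratio was 0.11 and -0.09 in WR and 0.14 and -0.15 in RWR, with means of 0.01 and -0.005. Sdhd, a membrane anchor, was -0.22 and 0.23 in WR and -0.26 and 0.15 in RWR, with means of 0.004 and -0.05. Sdhc, the other anchor, was -0.02 and -0.01 in WR and 0.06 and 0.03 in RWR.

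Complex IV had 12 of 14 measured genes with means below 0 in WR and 10 of 14 in RWR, with medians of -0.05 and -0.06. Cox4i1, the widely expressed form of subunit 4, had means of 0.04 and -0.02. Cox5a and Cox5b had means of -0.04 and -0.03 in WR and of -0.06 and -0.04 in RWR, and Cox5a was below 0 on both RWR chips (-0.11 and -0.01). Cox6a1 had means of -0.11 ± 0.03 and -0.09 ± 0.03, each the average of chips with opposite signs as given above. Cox7b was -0.23 and 0.04 in WR and -0.21 and -0.02 in RWR (means -0.10 and -0.12), and Cox7a2 had means of -0.08 and -0.09. Cox6c had means of -0.06 and -0.14, with both RWR chips below 0 (-0.22 and -0.06). Cox8a was lower on all 4 chips (means -0.07 and -0.06). Cox17, a copper chaperone, had means of -0.04 and -0.14.

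The complex IV isoforms known from other tissues were also read above background. Cox6a2 and Cox8b, the heart and skeletal muscle forms of subunits 6a and 8, Cox6b2, the testis form of subunit 6b, and Cox4i2, the form of subunit 4 known from lung, were well above background in all 8 readings. Their processed signals ranged from 515 to 668 for Cox6a2, from 77.5 to 107.7 for Cox8b, from 79.4 to 122.4 for Cox6b2 and from 644 to 754 for Cox4i2. Cox6a2 had means of -0.02 and 0.04 and Cox4i2 of -0.01 and 0.03. Cox8b was -0.23 and -0.21 on the WR chips (mean -0.22 ± 0.13) and 0.19 and -0.12 on the RWR chips (mean 0.04 ± 0.13). Both means depended on the background correction, since WR was -0.10 with normexp or no correction, and RWR turned to -0.03 and -0.02. Cox6b2 was 0.33 and -0.11 in WR (mean 0.11 ± 0.09) and had a mean of -0.08 ± 0.09 in RWR. Its WR mean was -0.10 with normexp and 0.007 with no correction, its RWR mean turned to 0.04 with either, and its RWR minus WR difference changed sign, so no direction is given for it. Cox15, which makes heme A for complex IV, was 0.09 and 0.27 in RWR (mean 0.18 ± 0.23) and 0.18 and -0.29 in WR (mean -0.05 ± 0.23, or -0.23 with normexp). Cox15, Cox8b and Cox6b2 had the widest technical SD of the 53 (0.32, 0.19 and 0.13), against at most 0.05 for the other 50.

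The comparison of RWR with WR was made between chips of the same dye orientation, in which the dye term of a probe cancels. It assumes that the same sedentary pool was on all chips. The median difference over the 53 members was -0.03 on the log2 scale, or -0.02 with the running pool in Cy5 and -0.05 with it in Cy3, beside medians of -0.001, -0.015 and 0.010 for the 5927 genes, so the Cy5 value was near that of the other genes. With normexp the median of the members was -0.013. The difference was below 0 in 37 of 53 members (69.8%, beside 50.9% of the 5927 genes), and in 32 of 53 with normexp. It was below 0 in both orientations in 27 of 53 members, beside 29.7% of the 5927 genes and 29.9% of all named genes. It was above 0 in both in 9 of 53, beside 28.5% and 23.7%.

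**Figure D3:**
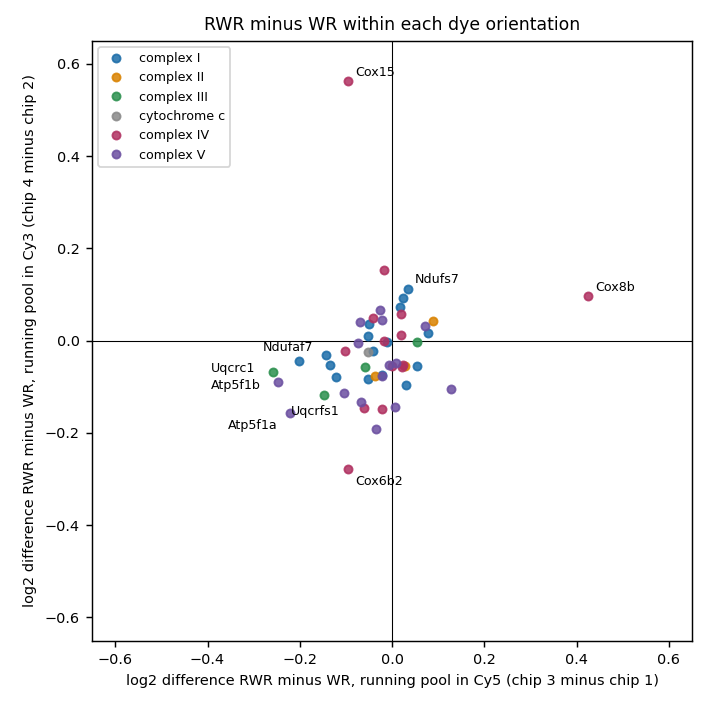
The log2 difference RWR minus WR with the running pool in Cy5 (x axis) is plotted against the same difference with the running pool in Cy3 (y axis) for the 53 measured members, coloured by complex. Atp5f1a, Atp5f1b and Uqcrc1 lie farthest below 0 along the x axis with y also below 0, and Cox15, Cox8b and Cox6b2, whose technical SD is the widest, lie far out along 1 axis.

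Cox15, Cox8b and Cox6b2 aside, the members with the lowest differences were the alpha and beta subunits of the ATP synthase. For Atp5f1a the difference was -0.22 with the running pool in Cy5 and -0.16 with it in Cy3 (mean -0.19 ± 0.04), and for Atp5f1b it was -0.25 and -0.09 (mean -0.17 ± 0.04). For Uqcrc1 it was -0.26 and -0.07 (mean -0.16 ± 0.04), for Uqcrfs1 -0.15 and -0.12 (mean -0.13 ± 0.04) and for Ndufaf7 -0.20 and -0.05 (mean -0.12 ± 0.05). These differences kept their sign under other background corrections and centrings of the chips. In the other direction, Ndufs7 was 0.03 and 0.11 (mean 0.07 ± 0.04) and Sdhc 0.09 and 0.04 (mean 0.06 ± 0.04). The widest differences, 0.26 ± 0.19 for Cox8b, 0.23 ± 0.32 for Cox15 and -0.19 ± 0.13 for Cox6b2, belong to the 3 genes of wide technical SD named above, and under other background corrections they went as low as 0.07 for Cox8b, as high as 0.46 for Cox15 and to 0.14 for Cox6b2. By complex, the median difference was -0.03 in complex I, -0.01 in complex II, -0.10 in complex III, -0.01 in complex IV and -0.04 in complex V. That of complex IV changed sign, to 0.03, with normexp or no background correction.

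Other nuclear genes of mitochondria were set beside the members. Of 36 listed assembly factors that are no members, 8 had a named probe, all well above background (Surf1, Lrpprc, Fastkd2, Bcs1l, Sdhaf2, Ecsit, Timmdc1 and Tmem126a). None passed the 1.2-fold limit in either comparison, and their medians were -0.02 in WR and -0.04 in RWR. Bcs1l, a chaperone that inserts the Rieske subunit into complex III, was -0.10 and -0.20 on the RWR chips (mean -0.15). The 24 named genes of mitochondrial ribosomal proteins, which translate the subunits coded in mitochondrial DNA, also had none past the limit. Their medians were -0.04 in WR, with 19 of 24 below 0, and -0.04 in RWR, with 20 of 24 below 0. Below 0 were 49.8% and 51.0% of the 5927 named genes well above background. Lower on both chips were 10 of 24 in WR and 10 of 24 in RWR, beside 15.3% and 17.0% of those genes, and the median RWR minus WR difference was -0.01.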

How the data were processed

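Hippocampal RNA pools were measured on 4 chips of a rat oligo array of 60-mer probes. The authors extracted the scans with Agilent Feature Extraction 11.0.1.1, in which background subtraction, spatial detrending and a LOWESS normalization of the dyes were applied. The deposited intensity is the processed signal after these steps, given per spot and dye, the deposited log10 ratio is Cy5 over Cy3, and the deposited p-value comes from the error model of the software for a single chip. The series matrix of the authors held the log10 ratio of the processed signals (within 0.0001 at 100% of spots), with medians of 0.0102, 0.0064, 0.0055 and 0.0009 on the 4 chips.

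Control spots and outlier-flagged spots (118 to 140 per chip) were dropped, each ratio was expressed as running over sedentary from the labelled dyes, on the log2 scale, and spots of a probe were averaged. Symbols came from RefSeq (GRCr8) through unversioned accessions, for 10768 of 41012 probes. The brightest probe stood for a gene. A model of WR, RWR and a dye term left 1 residual degree of freedom per probe, and its root mean square over probes at each of 20 signal levels gave the technical SD of a chip. The technical SE is that SD over the root of the number of chips for a pair mean, and the SD itself for the RWR minus WR difference. The number of chips limits the precision. Members and lists were chosen with earlier results of these data known. Genes described were, per comparison, the 3 highest and 3 lowest measured members, members by role or isoform and those at background, and then the other members, except that 1 member is not reported here by itself and enters only counts and medians. Alternatives were other p-value filters and cutoffs, normexp (offset 50) or no background correction with loess in limma 3.58.1 under R 4.3.3, centring, a filter on dim probes, all probes of a gene, subunits only, and each chip left out. The steps were tested on simulated data. Python 3.11.15, numpy 2.4.6 and pandas 2.3.3 were used. Probe and protein sequences were not used here.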

Additional observations from a re-analysis of the deposited data

Results flagged for a closer look

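Sdhc, a membrane anchor of complex II, was lower than sedentary on both WR chips (-0.02 and -0.01 on the log2 scale) and higher on both RWR chips (0.06 and 0.03), which singled it out among the members. Its means were -0.02 ± 0.03 in WR and 0.05 ± 0.03 in RWR (technical SE), so the WR value lay within the error of the chips. The RWR minus WR difference was 0.065 ± 0.04, smaller than that of Ndufs7 (0.073). This difference between the running groups was not tested, since each group is 1 pool.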

How the results depend on the processing

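The counts of members past the rule built from the study's criteria were 0 in both comparisons under each alternative tried. Alternatives that kept the p-value filter on the brightest probe could only give 0, since no member had a single-chip p-value under 0.01 from the software. Without that filter, 2 measured members lay under 0.75-fold on a single chip. These were Cox6a1 with the running pool in Cy3 (-0.44 in WR and -0.43 in RWR) and Uqcrc1 with RWR in Cy5 (-0.43). The median log2 ratios of all 55 members kept their sign under each alternative that used both chips of a pair. They lay between -0.03 and -0.02 in WR, between -0.05 and -0.04 in RWR, and between -0.03 and -0.01 for RWR minus WR. For the 53 measured members the WR median was -0.04 with normexp. On a single chip the median of the 55 ranged from -0.073 to 0.025 in WR and from -0.111 to 0.0069 in RWR. Its sign was set by the chip, since a single chip keeps the dye term. RWR minus WR was -0.049 without replicate 1 of either group (the chips with the running pool in Cy5) and -0.023 without replicate 2. Of 660 values of single members under alternatives that used both chips, 9 moved by more than the technical spread and 28 changed sign. No paired analysis was possible because each group is 1 pool and replicate numbers mark the dye orientation of a chip. The limits are the single pool per group, the dye term, which exceeds most mean ratios, and the dim probes of Cox15, Cox8b and Cox6b2, whose technical error is the widest among the measured members.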
